A study of Bos taurus with 40 samples.

Results

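The genes described here code for adipokines, the hormones and signalling proteins that fat tissue secretes, and for their receptors. They were chosen by symbol: LEP, LEPR, ADIPOQ, ADIPOR1, ADIPOR2, RETN, NAMPT, RARRES2 and CMKLR1. Of these 9 genes, 8 had a row among the 13570 genes of the count tables, and all 8 were among the 13148 genes tested. ADIPOQ, which codes for adiponectin, was not analysed here. The animals were Korean cattle slaughtered at more than 22 months of age, 5 cows and 5 bulls, and 4 tissues were taken from each: abdominal fat, liver, longissimus dorsi muscle and pituitary gland. This gave 40 RNA-seq libraries, 5 per sex in each tissue, with no treatment and no allele named in the labels. The study asked which genes are sexually dimorphic in these tissues, and the tissue comparisons below place the 8 genes within the same animals.

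Leptin, the product of LEP, is secreted by adipocytes in proportion to fat stores and acts through its receptor LEPR, a cytokine receptor that signals through the kinase JAK2 and is best known in the brain. Adiponectin acts through ADIPOR1 and ADIPOR2, membrane receptors linked to AMP-activated kinase and PPARA, and resistin (RETN) comes from adipocytes in rodents but mainly from leukocytes in humans. NAMPT, also called visfatin, is an enzyme of NAD salvage that is also found outside cells. RARRES2 codes for chemerin, a chemoattractant secreted chiefly by liver and fat, and CMKLR1 is its main signalling receptor, known on leukocytes and endothelial cells.

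All levels are TMM-scaled CPM, read counts relative to library size, and all differences are on the log2 scale with a standard error (SE). Transcript lengths were not at hand, so levels were compared within a gene and never between genes. In bulk tissue, fewer cells of a type and less RNA per cell cannot be told apart. The libraries held 5173092 to 19165864 reads on genes, with a median of 10005607. Tissue markers were highest in the labelled tissue: the summed level of 11 of 12 listed adipocyte markers was 10765 to 35413 CPM in fat, against 449 to 984 CPM in liver, 910 to 4014 CPM in muscle and 65.4 to 125 CPM in pituitary. Of the libraries, 2 stood apart in their sex markers. The liver library labelled bull 3 held 1401 CPM of XIST, within the 681 to 2179 CPM of the cows' livers, and 0 reads of the Y genes DDX3Y, USP9Y and ZFY. The fat library labelled bull 5 held 2.16 CPM of these Y genes, below the other bulls' fat, and its profile was the least like the other fat libraries, with a mean correlation of 0.906. Leaving both libraries out left every comparison between tissues in the same direction for the 8 genes. The calls it changed are named beside the gene.

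Between tissues, most of the 8 genes differed, as did most genes measured. At an FDR adjusted p under 0.05 (edgeR's quasi-likelihood test over the 13148 genes), 7 of the 8 differed between fat and liver, where 64.3% of all genes did. Of these, 3 were higher in fat (background 35.4%) and 4 higher in liver (background 28.9%). All 8 differed between fat and muscle (background 59.6%), 4 higher in fat (background 32.8%) and 4 higher in muscle (background 26.8%). Between fat and pituitary 6 differed (background 64.6%), of which 5 were higher in fat (background 31.8%) and 1 in pituitary (background 32.8%). The counts for the remaining pairs were 7 between liver and muscle (background 62.1%), 5 between liver and pituitary (background 64.5%) and 7 between muscle and pituitary (background 64%). With counts this close to the background on a list of 8, the shares say nothing particular about adipokine genes, and what follows is the order of tissues for each gene. The genes did not share an order: LEP and ADIPOR2 had their highest median in fat, LEPR, RARRES2 and CMKLR1 in liver, and ADIPOR1 and NAMPT in muscle. RETN had its highest median in fat, at a level of a few reads per library.

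**Figure D1:**
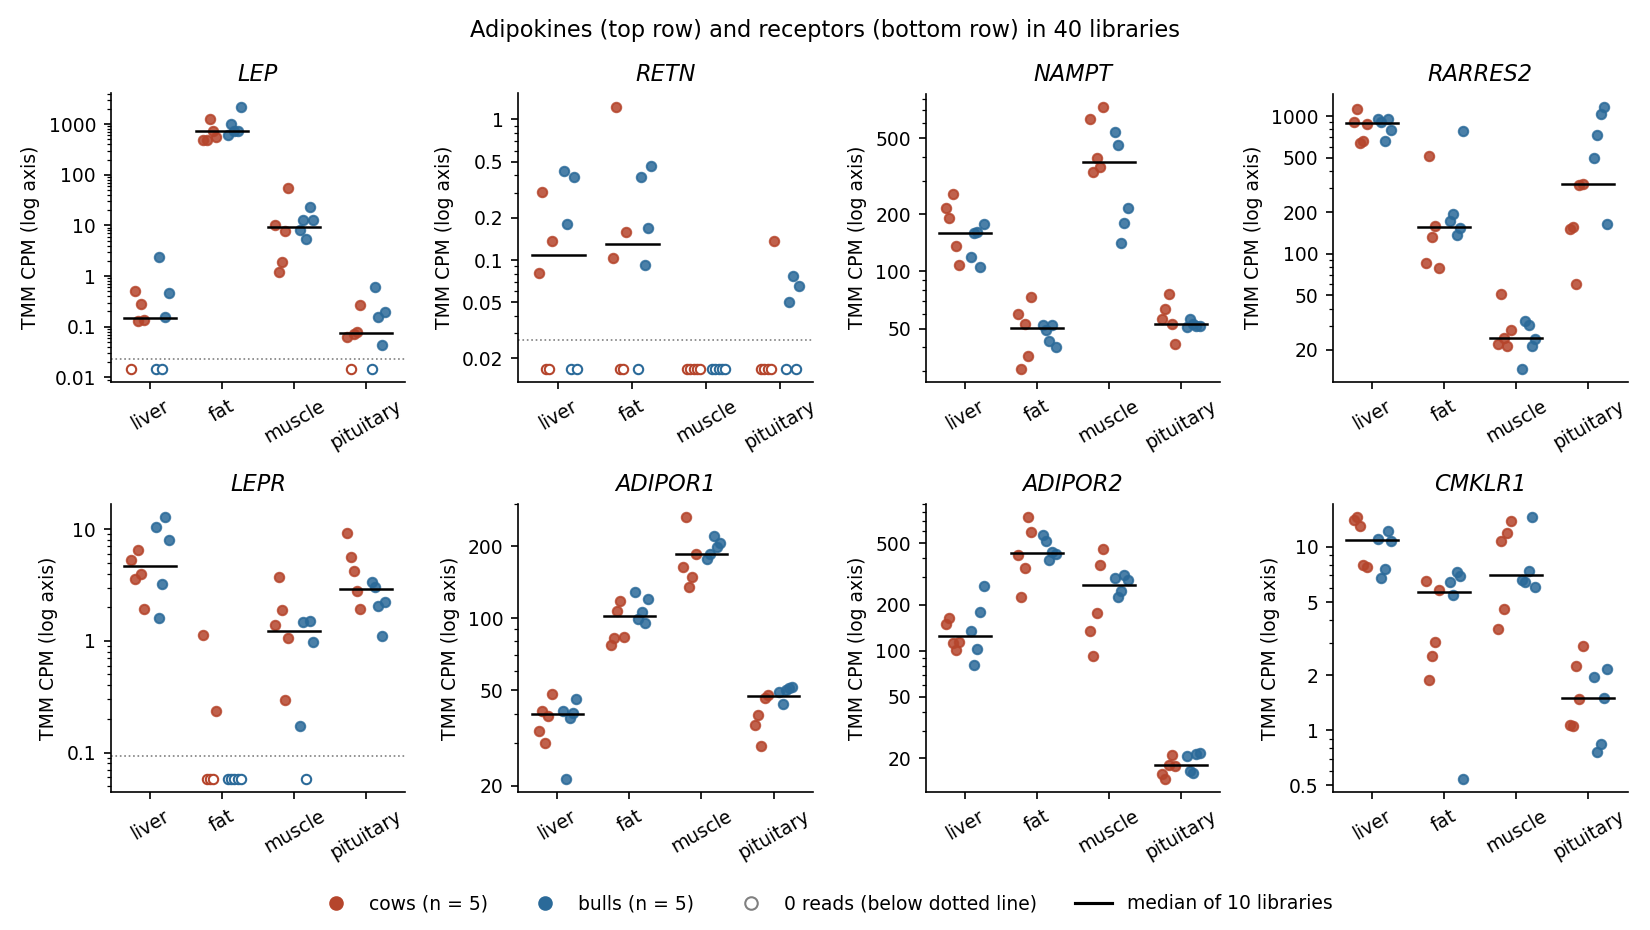
Levels of the 8 genes in TMM-scaled CPM, 1 panel per gene, with the 4 tissues on the x axis and 1 point per library, cows and bulls in separate colours. LEP is the gene whose 10 fat libraries all lie above every other library, ADIPOR1 lies highest in muscle, and RETN has no read in any of the 10 muscle libraries.

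LEP was a gene of fat. In the fat of cows 1 to 5 its level was 481, 489.6, 1262, 742 and 554 CPM, and in the fat of bulls 1 to 5 it was 602, 989, 730.0, 726 and 2216 CPM. Every fat library lay above all 30 libraries of the other tissues, which held for 1.6% of all genes and for no other gene of the 8. In muscle the cows had 10.2, 1.21, 1.90, 7.83 and 55.5 CPM and the bulls 7.99, 12.6, 5.29, 23.4 and 12.9 CPM. Muscle thus spread 45.8-fold between its lowest and highest library, and cow 5 alone held 42.3% of the 998 muscle reads. Fat exceeded muscle by 5.93 ± 0.456 (SE) on the log2 scale, 60.8-fold, with an FDR adjusted p of 3.26e-12. Without cow 5 the difference was 6.74.

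In liver and pituitary LEP was near the detection limit, with 29 and 25 reads over 10 libraries each. Fat exceeded liver by 11.23 ± 0.654 and pituitary by 12.37 ± 0.693 (adjusted p = 1.80e-17 and 3.34e-18). Muscle, too, exceeded liver, by 5.31 ± 0.659 (adjusted p = 8.21e-10), and pituitary, by 6.45 ± 0.698 (adjusted p = 1.09e-11). Liver and pituitary did not differ beyond their spread (1.14 ± 0.841, adjusted p = 0.217). Without bull 2 the difference of fat from liver was 12.02, that of fat from pituitary 12.98 and that of muscle from pituitary 7.05. That of liver from muscle was -6.09 without bull 2 and -4.53 without cow 5. Bull 2 supplied 13 of the 29 liver reads and 12 of the 25 pituitary reads. Among the liver libraries that of bull 2 also held the most reads of the adipocyte gene FABP4 (10.02 CPM), of the muscle gene ACTA1 (70.0 CPM) and of the pituitary gene PRL (311 CPM). The adipocyte gene CIDEC had its highest liver level there (7.52 CPM), while PLIN1 (7.16 CPM) was higher in cow 3 (7.30 CPM). The summed level of the 11 adipocyte markers, 661 CPM, lay within the 449 to 984 CPM of the 10 livers. FABP4, CIDEC and PLIN1 made up little of that sum, so it says little of them. The part of these genes in the LEP level of that library was not tested.

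The genes most like LEP over the 40 libraries were those of the fat cell: CIDEC, a lipid droplet protein, at r = 0.991, and TUSC5 and FABP4, a fatty acid binding protein, both at r = 0.990. Such r values, on log2(CPM + 1), largely follow the differences between the 4 tissues. Within muscle alone, the LEP level was set beside PLIN1, the coat protein of fat droplets, a comparison chosen after the values were seen. PLIN1 in muscle was 66.8, 10.7, 16.5, 48.2 and 253 CPM in the cows and 22.9, 38.8, 41.5, 82.3 and 50.2 CPM in the bulls. The library with most LEP, cow 5, also had the most PLIN1, and cow 2 had the least of both. Pearson's r over the 10 animals was 0.937 (permutation p = 0.00015, adjusted 0.00075 over 5 such relations) and Spearman's rho 0.842 (permutation p = 0.0036, adjusted 0.018). Without cow 2 and cow 5, the animals farthest from the PLIN1 median, r was 0.810, and with each sex centred on its own mean it was 0.961. Against the summed adipocyte markers r was 0.796 (permutation p adjusted 0.0101) and rho 0.624 (permutation p adjusted 0.1004), and r was 0.530 without the 2 farthest libraries. LEP reads per CIDEC read ran from 0.214 to 0.715 in muscle (median 0.378) and from 0.243 to 0.499 in fat (median 0.349), so these ranges overlapped. LEP reads per PLIN1 read were 0.113 to 0.348 in muscle (median 0.191) and 0.178 to 1.61 in fat (median 0.347). Per FABP4 read they were 0.116 to 0.495 in muscle (median 0.324) and 0.0550 to 0.500 in fat (median 0.158), so the medians of the last pair of ratios stood in opposite order.

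**Figure D2:**
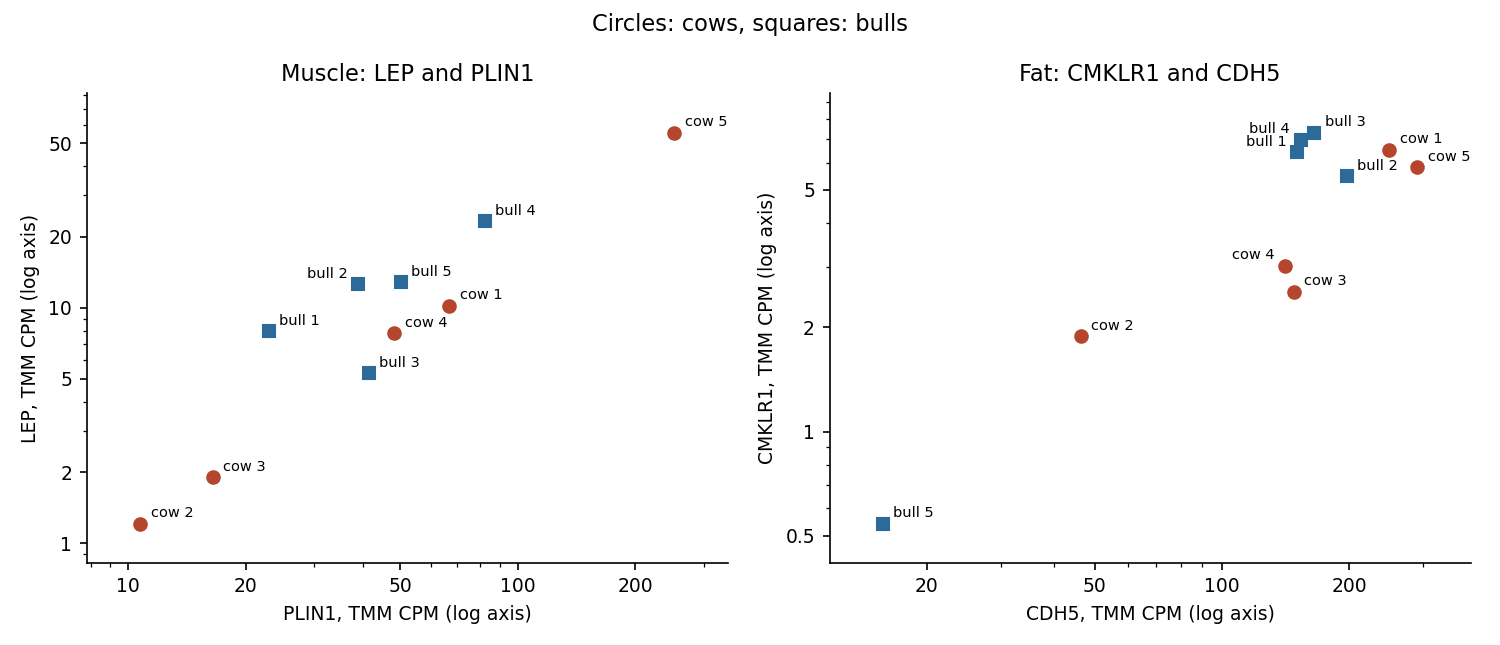
Levels of a gene and of a cell type marker in the same libraries, both axes in TMM-scaled CPM, 1 point per animal and colours for sex: left, LEP against PLIN1 in muscle, and right, CMKLR1 against CDH5 in fat. On the left LEP rises with PLIN1 over the 10 animals (r = 0.937), and on the right the lowest CMKLR1 values belong to bull 5 and cow 2, which also have the least CDH5.

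LEPR was close to absent from fat. Fat held 25 reads in all, 22 in cow 1 and 3 in cow 5, and the remaining 8 of 10 libraries, every bull among them, held 0 reads. In liver the cows had 5.33, 3.57, 6.53, 3.93 and 1.91 CPM and the bulls 10.4, 1.61, 3.22, 12.9 and 8.02 CPM. In pituitary the cows had 9.15, 5.65, 4.20, 2.81 and 1.91 CPM and the bulls 3.39, 3.03, 2.06, 1.10 and 2.22 CPM. Liver and pituitary therefore overlapped, and they did not differ beyond their spread (liver higher by 0.89 ± 0.512, adjusted p = 0.133), although the adjusted p was 0.0418 without cow 1. Muscle ran from 0 to 3.72 CPM with a median of 1.22 CPM. It lay below liver by 2.33 ± 0.552 (adjusted p = 0.000439) and below pituitary by 1.43 ± 0.552 (adjusted p = 0.0211, and 0.0525 without bull 1). Fat lay below liver, pituitary and muscle, by fitted differences of 5.37 ± 0.686, 4.47 ± 0.686 and 3.04 ± 0.716 (adjusted p = 3.69e-09, 9.32e-08 and 0.000114). Without cow 1, which held most of the fat reads, the fitted differences of fat were -7.42, -6.36 and -5.17 in the same order. The nearest profiles over the libraries were those of RAB30, CLDN1 and PGAP1, at r = 0.886, 0.883 and 0.870.

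The adiponectin receptors differed from each other in their order of tissues. ADIPOR1 was highest in muscle, at 163, 265, 135, 148 and 186 CPM in the cows and 176, 186, 220.0, 198 and 206 CPM in the bulls. Fat followed at 77.5 to 128 CPM (median 103), with pituitary at 29.2 to 51.4 CPM (median 47.3) and liver at 21.3 to 48.1 CPM (median 39.6). Every muscle library lay above all libraries of the other tissues, which held for 4.65% of all genes. Muscle exceeded fat by 0.89 ± 0.139 (adjusted p = 6.54e-07), liver by 2.31 ± 0.140 (adjusted p = 5.35e-18) and pituitary by 2.08 ± 0.139 (adjusted p = 1.46e-16). Fat exceeded liver by 1.42 ± 0.140 (adjusted p = 1.08e-11) and pituitary by 1.198 ± 0.139 (adjusted p = 7.72e-10). Liver and pituitary did not differ beyond their spread (liver lower by 0.22 ± 0.140, adjusted p = 0.166). The scaling mattered for ADIPOR1. With library sizes alone the difference of fat from muscle was -0.12 (adjusted p = 0.496), on a scale where the median of all genes stood at 0.859 rather than 0.126. On that scale liver lay below pituitary by 1.07 (adjusted p = 5.07e-08), with the median of all genes at -0.919 rather than -0.117. The most similar profiles were those of the glycolytic enzyme ALDOA (r = 0.965), UBAC1 (r = 0.957) and RASD2 (r = 0.945).

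ADIPOR2 was highest in fat, at 418, 223, 346, 744 and 596 CPM in the cows and 571, 515, 388, 438 and 427 CPM in the bulls. In muscle the cows had 134, 92.4, 176, 362 and 462 CPM and the bulls 297, 225, 245, 310.2 and 290.3 CPM. Fat and muscle overlapped, and fat was higher by 0.85 ± 0.219 (adjusted p = 0.000967). Liver ran from 81.3 to 265 CPM (median 124), below fat by 1.74 ± 0.219 (adjusted p = 7.83e-09) and below muscle by 0.89 ± 0.219 (adjusted p = 0.000536). Pituitary, at 14.6 to 21.5 CPM, lay under every library of the other tissues, and its 10 libraries stayed within 1.47-fold of each other. Of all genes, 24.5% did not overlap, in either direction, between fat and pituitary. Between liver and pituitary 33.2% did not, and between muscle and pituitary 30.8%. The share of genes lowest in 1 tissue against all others was not counted. The difference of fat from pituitary was 4.67 ± 0.220 (adjusted p = 8.93e-20) and that of liver from pituitary 2.93 ± 0.221 (adjusted p = 1.31e-14). The nearest profiles were those of MGLL, a lipase of monoacylglycerols (r = 0.942), PDE2A (r = 0.940) and C28H10orf54 (r = 0.939).

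Within single libraries the balance of the receptors shifted with tissue. The number of ADIPOR2 reads per ADIPOR1 read, a ratio that scaling factors do not touch and that was chosen after the values were seen, was 2.36 to 5.78 in liver (median 3.76) and 2.70 to 7.12 in fat (median 4.51). It was 0.349 to 2.49 in muscle (median 1.36) and 0.322 to 0.620 in pituitary (median 0.417). Every liver and fat library thus had more reads of ADIPOR2 than of ADIPOR1, and every pituitary library fewer. The ratio counts reads, which also depend on transcript length, so only its change between tissues can be read.

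RETN was close to absent from these libraries. Fat held 39 reads, liver 14, pituitary 5 and muscle 0, and the 0 reads of muscle allow up to 3 reads over its 10 libraries, or 0.0409 CPM. Cow 2 supplied 19 of the 39 fat reads, at 1.23 CPM, and the other 9 fat libraries ran from 0 to 0.464 CPM. Against the limit for muscle, RETN was at least 6.73-fold higher in fat and at least 3.95-fold higher in liver. Without cow 2 the limit for fat was 3.87-fold, from 20 reads. Fat and liver did not differ beyond their spread (0.74 ± 0.762, adjusted p = 0.378). Fat exceeded pituitary by 2.70 ± 0.983 (adjusted p = 0.00289), and leaving out each animal kept this call, the difference being 1.78 without cow 2. Liver exceeded pituitary by 1.97 ± 1.06 (adjusted p = 0.0450), a call that was lost under DESeq2 (adjusted p = 0.0892) and without any 1 of bulls 1, 2 and 4 or cows 1 and 2 (adjusted p = 0.0650 to 0.180). The summed level of 9 of 10 listed leukocyte markers was 404 to 1432 CPM in fat and 1025 to 1971 CPM in liver, against 69.0 to 426 CPM in muscle and 77.1 to 268 CPM in pituitary, none of them at 0. The sum of 3 of 4 listed neutrophil markers had medians of 46.1 CPM in fat, 22.9 CPM in liver, 5.22 CPM in muscle and 2.73 CPM in pituitary. The part of either list in the RETN counts was not tested. The nearest profiles, IL27 (r = 0.750), HK3 (r = 0.744) and FFAR3 (r = 0.730), were less like RETN than those of the other 7 genes were like theirs.

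NAMPT was highest in muscle and lowest in fat and pituitary. In muscle the cows had 630.4, 331, 393, 353 and 734 CPM and the bulls 541, 462, 140.4, 179 and 215 CPM. In liver the cows had 214, 190.4, 254, 136 and 108 CPM and the bulls 118, 159, 160.3, 105 and 176 CPM. Muscle and liver overlapped through bulls 3, 4 and 5, and muscle was higher by 1.28 ± 0.208 (adjusted p = 1.21e-06). Fat ran from 30.7 to 72.9 CPM (median 50.5) and pituitary from 41.3 to 75.9 CPM (median 53.0), and these did not differ beyond their spread (fat lower by 0.18 ± 0.209, adjusted p = 0.470). Fat lay below liver by 1.72 ± 0.209 (adjusted p = 3.25e-09) and below muscle by 2.996 ± 0.209 (adjusted p = 3.81e-15). Liver exceeded pituitary by 1.54 ± 0.209 (adjusted p = 2.71e-08) and muscle exceeded it by 2.82 ± 0.208 (adjusted p = 9.14e-15). Of the adipokines with measurable reads, NAMPT was therefore the one with less in fat than in 2 of the other 3 tissues and more in none. Its nearest profiles were those of SOX6, a transcription factor (r = 0.932), PRKAA2, the catalytic alpha subunit of AMP-activated kinase found in muscle (r = 0.925), and C23H6orf106 (r = 0.925).

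RARRES2 was highest in liver, at 906, 1130.0, 639, 663 and 879.9 CPM in the cows and 956, 903, 657, 956 and 787 CPM in the bulls. The lowest and highest of these libraries were 1.77-fold apart, and the sexes overlapped. In fat the cows had 85.2, 513, 131, 160.0 and 79.3 CPM and the bulls 173, 193, 137, 153 and 774 CPM. Cow 2 and bull 5 were thus far above the other 8 fat libraries, which ran from 79.3 to 193 CPM. Liver exceeded fat by 1.87 ± 0.372 (adjusted p = 4.74e-05) and muscle by 4.95 ± 0.375 (adjusted p = 2.56e-13). Muscle had 14.6 to 51.1 CPM, below every library of the other 3 tissues, and fat exceeded it by 3.08 ± 0.375 (adjusted p = 1.51e-08). Of all genes, 15.8% did not overlap, in either direction, between fat and muscle. Between liver and muscle 26.6% did not, and between muscle and pituitary 30.8%.

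In pituitary RARRES2 was 151, 155, 60.1, 317 and 321 CPM in the cows and 498, 731, 1038, 1172 and 165 CPM in the bulls. The 10 libraries spread 19.5-fold, and 4 of the bulls were the highest. Pituitary lay above muscle by 3.92 ± 0.375 (adjusted p = 9.01e-11) and below liver by 1.03 ± 0.372 (adjusted p = 0.0173). The latter call was lost without cow 1 (0.87, adjusted p = 0.0569) and with library sizes alone (0.25, adjusted p = 0.556, the median of all genes then at -0.919). Fat against pituitary sat on the threshold, at -0.84 ± 0.372 with an adjusted p of 0.0501. With the animal as a block it was -1.003 (adjusted p = 0.0306), without bull 5 it was -1.27 (adjusted p = 0.00439), and without cow 2 it was -1.19 (adjusted p = 0.00398). Without the fat library of bull 5 and the liver library of bull 3 it was -1.19 (adjusted p = 0.00689). It also passed without cow 3 (adjusted p = 0.0332) and, with all animals kept, under edgeR's likelihood ratio test, DESeq2, RLE factors, library sizes alone and filterByExpr (adjusted p = 0.0186 to 0.0494). It did not pass when any 1 of the other 7 animals was left out. The nearest profiles were those of VKORC1 (r = 0.946), PDIA5 (r = 0.925) and CNPY3 (r = 0.922), genes whose products work in the endoplasmic reticulum.

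CMKLR1, the chemerin receptor, was highest in liver and muscle. In liver the cows had 14.1, 14.6, 12.9, 8.003 and 7.79 CPM and the bulls 11.01, 6.80, 7.57, 12.3 and 10.8 CPM. In muscle the cows had 3.59, 10.8, 4.57, 11.97 and 13.8 CPM and the bulls 6.60, 6.40, 7.40, 14.6 and 6.08 CPM. Liver and muscle overlapped and did not differ beyond their spread (liver higher by 0.30 ± 0.310, adjusted p = 0.402). Fat had 6.54, 1.88, 2.54, 3.02 and 5.82 CPM in the cows and 6.42, 5.48, 7.32, 6.98 and 0.541 CPM in the bulls. Fat lay below liver by 1.18 ± 0.309 (adjusted p = 0.00108) and below muscle by 0.88 ± 0.311 (adjusted p = 0.0145). The call against muscle was lost without bull 5 (adjusted p = 0.0671), without cow 2 (adjusted p = 0.0501) and without cow 4 (adjusted p = 0.0520). Without the fat library of bull 5 and the liver library of bull 3 the difference was -0.58 (adjusted p = 0.0740). With library sizes alone both differences lost their call, at -0.45 against liver (adjusted p = 0.223) and -0.02 against muscle (adjusted p = 0.989), where the medians of all genes stood at 0.819 and 0.859. Pituitary, at 0.756 to 2.87 CPM, lay below fat by 1.55 ± 0.319, below liver by 2.73 ± 0.318 and below muscle by 2.43 ± 0.319 (adjusted p = 5.76e-05, 1.31e-09 and 2.09e-08). The nearest profiles were those of SHE (r = 0.894), GHR, the growth hormone receptor (r = 0.885), and ETS1 (r = 0.877).

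**Figure D3:**
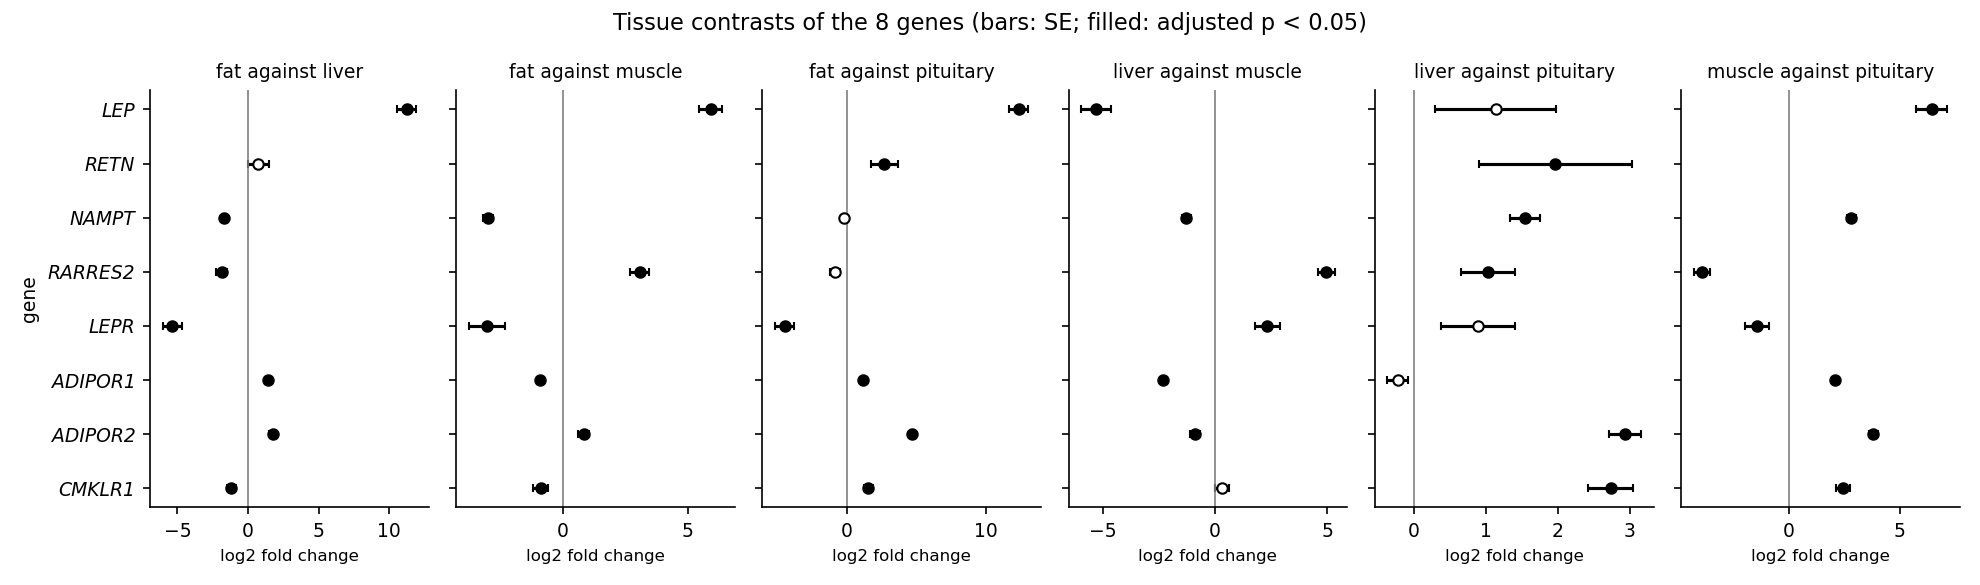
Log2 differences in level between tissues for the 8 genes, 1 panel per pair of tissues and 1 row per gene. Points have bars of 1 SE and are filled where the FDR adjusted p was under 0.05. The x axes differ between panels, and RETN against muscle is omitted because muscle held 0 reads. The largest difference shown is that of LEP between fat and pituitary, at 12.37.

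The ligand and receptor of chemerin ran in opposite directions among the fat libraries, a relation that did not pass after adjustment. Among the 6 genes with a median of at least 10 reads in fat (LEPR and RETN had fewer), 15 pairs were compared over the 10 animals. After adjustment 0 pairs passed 0.05, and 3 had an unadjusted permutation p under 0.05. For RARRES2 and CMKLR1, r was -0.808 (permutation p = 0.0073, adjusted 0.0940) and rho -0.552 (permutation p = 0.106, adjusted 0.528). Without cow 2 and bull 5 r was -0.139, and without bull 5 alone it was -0.598. With each sex centred on its own mean, r was -0.906 (permutation p adjusted 0.00030) and rho -0.952 (permutation p adjusted 0.0018), and this pair passed by both. The centring, here and below, took the fat library of bull 5 as male by its label, although its sex markers stood apart. No centred value without bull 5 or cow 2 is given. For NAMPT and RARRES2, r was -0.749 (permutation p = 0.0125, adjusted 0.0940) and rho -0.782 (permutation p = 0.0108, adjusted 0.162). Without the 2 farthest libraries, cow 2 and cow 5, r was -0.550. With each sex centred, this pair passed by rho (-0.818, permutation p adjusted 0.0443) but not by r (-0.770, permutation p adjusted 0.0676). For LEP and CMKLR1, r was -0.645 (permutation p = 0.0455, adjusted 0.228) and rho -0.418 (permutation p = 0.235, adjusted 0.618), and without cow 3 and bull 5 r changed sign, to 0.233.

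CMKLR1 in fat was also set beside CDH5, the cadherin of endothelial cells, a comparison chosen after the values were seen. CDH5 was 249, 46.3, 148, 141 and 290.4 CPM in the fat of the cows and 151, 198, 166, 154 and 15.8 CPM in that of the bulls. Cow 2 and bull 5 were again the lowest. Over the 10 animals r was 0.880 (permutation p adjusted 0.00495) and rho 0.697 (permutation p adjusted 0.0778), but without these 2 libraries r was 0.380, so the relation rested on them. Against the summed endothelial and leukocyte markers r was 0.205 and 0.324 and rho -0.07 and 0.03 (permutation p of r adjusted 0.557 and 0.441, of rho 0.945 for both). Of the other endothelial markers, KDR was lowest in cow 2 (37.6 CPM) and bull 5 (38.2 CPM). PECAM1 was lowest in cow 4 (265 CPM), and VWF was highest in bull 5 (1381 CPM). The fat library of bull 5 had the lowest sum of these leukocyte markers, of macrophages and other leukocytes, among the 10, at 404 CPM. A separate list of neutrophil markers, 3 of 4 measured, went the other way. Its sum was highest in the fat of bull 5, at 557 CPM, with bull 2 next at 237 CPM. The relation of CMKLR1 to the neutrophil markers was not tested.

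For sex, 1 of the 8 genes passed in 1 tissue. The tests within a tissue (M1) were edgeR likelihood ratio tests over the 13148 genes. In liver 0 of the 8 genes passed (background 0.175%), and 0 had an unadjusted p under 0.05. In fat 0 passed (background 0.114%) and 1, LEPR, had an unadjusted p under 0.05. In muscle 0 passed (background 0.517%), and again 0 had an unadjusted p under 0.05. The same counts of 0 came from edgeR's quasi-likelihood test and from DESeq2. In liver, fat and muscle the quasi-likelihood test called 1, 3 and 7 of all genes (0.00761%, 0.0228% and 0.0532%). DESeq2 called 20, 30 and 89 of all genes. With so few calls among all genes, these counts of 0 say little of the 8. In pituitary 1 passed (background 0.745%), RARRES2, which was male-biased (background for male-biased genes 0.555%). In no tissue were all 5 bulls of any of the 8 genes above, or all below, the 5 cows, which held for 0.548% of all genes in liver and 1.29% in fat, and for 1.65% in muscle and 1.34% in pituitary. Without the liver library labelled bull 3 and without the fat library of bull 5, the counts in liver and fat remained 0.

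RARRES2 in pituitary averaged 201 ± 114 CPM (SD, n = 5) in the cows and 721 ± 407 CPM (SD, n = 5) in the bulls. Bulls 1 to 4, at 498 to 1172 CPM, lay above every cow, and bull 5, at 165 CPM, lay among the cows. The difference was 1.84 ± 0.481 on the log2 scale, 3.58-fold, with an FDR adjusted p of 0.0352. The call held when cow 4, cow 5, bull 1 or bull 5 was left out, and its adjusted p was 0.000433 without bull 5. It was lost without cow 1, 2 or 3 or bull 2, 3 or 4 (adjusted p = 0.0587 to 0.162). It was also lost with the quasi-likelihood test (adjusted p = 0.254), which called 0.0913% of all genes and 0 of the 8, and with DESeq2 (adjusted p = 0.108). Uniquely aligned reads outside genes were 49.4%, 46.7% and 52.1% in the pituitary of cows 1 to 3. They were 46.9% in that of bull 5 and 33.2% to 41.2% in the other pituitary libraries. Cows 1 to 3 and bull 5 also had the least RARRES2. The part of this share in the sex difference was not tested.

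The sex difference of RARRES2 was seen beside that of CGA, which codes for the alpha subunit shared by the gonadotropins and thyrotropin. CGA was 2619, 2380.4, 1339, 3053 and 2840.0 CPM in the pituitary of the cows and 8418, 6657, 12625, 14537 and 1465 CPM in that of the bulls. Bulls 1 to 4 were again above every cow, and bull 5 among them. CGA, too, was lowest in cows 1 to 3 and bull 5, the pituitary libraries with the most reads outside genes. Its sex difference was 1.84 ± 0.437 (adjusted p = 0.0125, and 0.242 with the quasi-likelihood test), and its call was lost without cow 2 or 3 or bull 3 or 4 (adjusted p = 0.0621 to 0.0750). RARRES2 was compared with 7 pituitary hormone genes over the 10 animals, a choice made after the values were seen. With CGA, r was 0.940 (permutation p = 7e-05, adjusted 0.00049) and rho 0.927 (permutation p adjusted 0.0021). Without bulls 3 and 4, the farthest from the CGA median, r was 0.885, and with each sex centred on its own mean it was 0.893. The gonadotropin beta subunits followed, FSHB at r = 0.820 and LHB at r = 0.802 (permutation p adjusted 0.0150 for both), with rho of 0.770 and 0.745 (permutation p adjusted 0.0299 for both) and with r of 0.629 and 0.586 without the 2 farthest animals. PRL, for prolactin, had r = 0.758 (permutation p adjusted 0.0220) and GH1, for growth hormone, r = 0.698 (permutation p adjusted 0.0394), with rho of 0.721 and 0.758 (permutation p adjusted 0.0317 and 0.0299) and with r of 0.806 and 0.542 without the 2 farthest. TSHB and POMC had r = 0.598 and 0.192 and did not pass (permutation p adjusted 0.0835 and 0.597), nor did their rho of 0.333 and 0.430 (permutation p adjusted 0.350 and 0.256). CGA was the 1 gene of the 7 listed pituitary hormone genes called for sex, and the summed level of the 7 was 82771 to 265777 CPM in the cows and 143841 to 286052 CPM in the bulls, none of them at 0. Other marker lists moved as well. The summed level of 8 skeletal muscle markers was 12.1 to 35.6 CPM in the pituitary of the cows and 21.6 to 69.8 CPM in that of the bulls, none at 0, and MYH7 (1.18 ± 0.279, adjusted p = 0.00837) and MYL2 (3.11 ± 0.788, adjusted p = 0.0277) were called for sex. The sum of 3 of 4 listed mesothelial markers was 49.6 to 185 CPM in the cows and 65.9 to 268 CPM in the bulls, none at 0, lowest in cow 3 and highest in bull 4, as RARRES2 was. Its median was 110 CPM in pituitary, against 25.5 CPM in fat, 12.8 CPM in liver and 6.52 CPM in muscle. In pituitary this sum is therefore not read as a measure of mesothelial cells. The part of cell composition in the difference of RARRES2 was not tested.

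**Figure D4:**
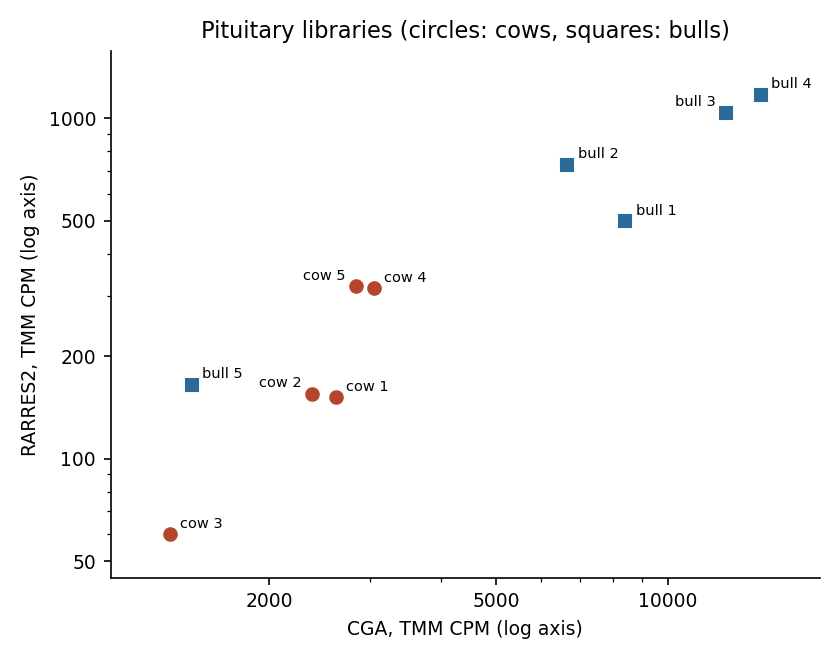
RARRES2 against CGA in the 10 pituitary libraries, both axes in TMM-scaled CPM, 1 labelled point per animal and colours for sex. Bulls 1 to 4 lie above all cows on both axes and bull 5 lies among the cows (r = 0.940 over the 10 animals).

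LEPR leaned the other way in pituitary, with a sex difference of -1.01 ± 0.430 (bulls against cows) that did not pass (unadjusted p = 0.0196, adjusted p = 0.393). In fat its unadjusted p was 0.00453 (adjusted p = 0.435), and since all bulls were at 0 and cow 1 held 22 of the 25 reads, no fold is given. In liver its sex difference was 0.79 ± 0.484 (adjusted p = 0.823). NAMPT in muscle was at -0.67 ± 0.397 (adjusted p = 0.542), with bulls 3, 4 and 5 the lowest of the 10 animals and bulls 1 and 2 among the cows. In pituitary the 5 bulls were nearly alike for NAMPT, at 50.8 to 56.2 CPM, a coefficient of variation of 4.08%, and the difference was -0.13 ± 0.184 (adjusted p = 0.830). LEP in fat had a sex difference of 0.55 ± 0.443 (adjusted p = 0.846), with 706 ± 328 CPM (SD, n = 5) in the cows and 1053 ± 665 CPM (SD, n = 5) in the bulls. The fat library of bull 5, whose sex markers stood apart, held 2216 CPM, and the other bulls had 602 to 989 CPM. The adiponectin receptors showed sex differences between -0.03 and 0.31 in the 4 tissues, with SE from 0.187 to 0.387.

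Over the 4 tissues together (M2, sex with tissue as a term), 0 of the 8 genes passed (background 1.69%), and 2 had an unadjusted p under 0.05. These were LEPR, at -0.86 ± 0.416 (adjusted p = 0.276), and NAMPT, at -0.31 ± 0.151 (adjusted p = 0.282). The quasi-likelihood test (77 of all genes), DESeq2 (279 of all genes) and limma voom with the animal as a random block (8 of all genes) also gave 0. M2 counts 4 libraries of an animal as separate samples, so its p-values are smaller than 10 animals allow. For the interaction of sex and tissue, edgeR called 0 of the 8 genes (background 0.335%), and 2 had an unadjusted p under 0.05. These were LEPR (adjusted p = 0.102) and RARRES2 (adjusted p = 0.312). The quasi-likelihood test called 0 of all 13148 genes for the interaction, so its 0 of the 8 says nothing of them. Leaving out cow 4 brought LEPR to an adjusted p of 0.0261, and leaving out bull 5 brought RARRES2 to 0.0438. That the sex difference of RARRES2 in pituitary exceeded that in the other tissues was therefore not shown at the threshold.

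**Figure D5:**
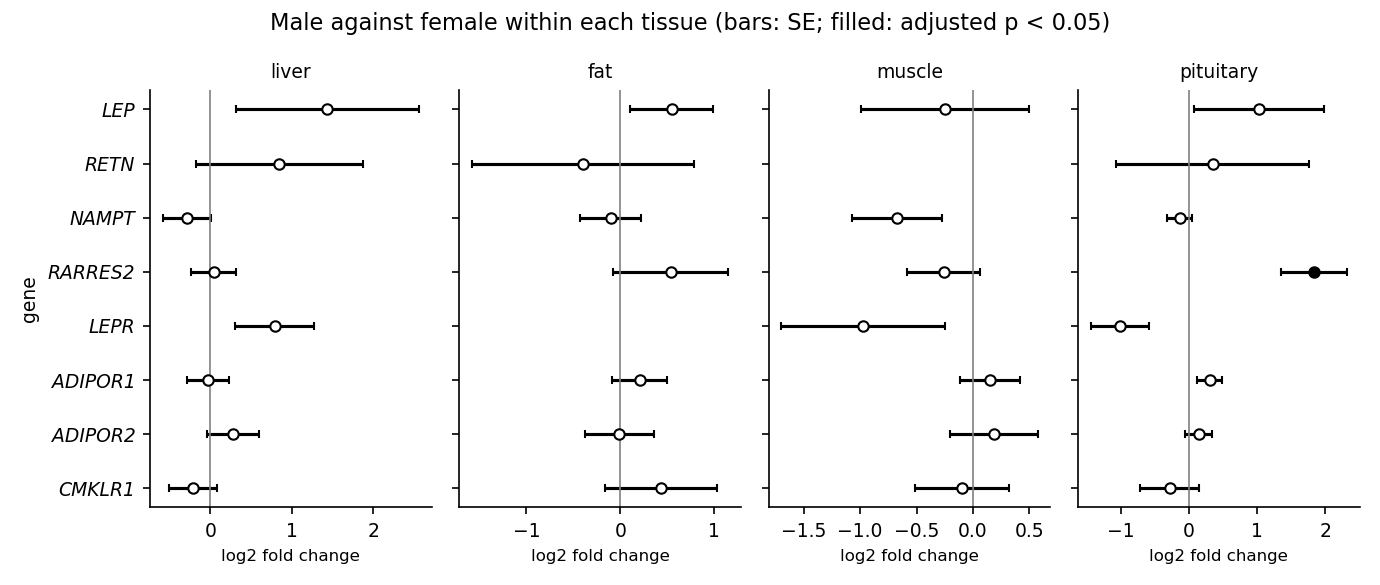
Sex differences of the 8 genes in each tissue as log2 of bulls against cows, points with bars of 1 SE and filled where the FDR adjusted p was under 0.05. RARRES2 in pituitary, at 1.84, is the filled point, and LEPR in fat and RETN in muscle are omitted because they have no SE.

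The partners of these genes were taken from lists, chosen as the 8 genes were with earlier results of these data known. They are given by counts and by medians, with the medians of all genes beside them. For every list the background of the counts was the same. Of all genes, 35.4% were higher and 28.9% lower in fat than in liver. Against muscle 32.8% were higher and 26.8% lower, and against pituitary 31.8% were higher and 32.8% lower. Of the leptin signalling list 7 of 12 genes were measured. Of these, 2 were higher and 2 lower in fat than in liver (median -0.41, all genes 0.13), 2 higher and 4 lower than in muscle (median -0.68, all genes 0.13), and 3 higher and 1 lower than in pituitary (median 0.64, all genes -0.02). STAT5A, a transcription factor of cytokine receptors, was higher in fat than liver by 1.70 ± 0.189 (adjusted p = 3.10e-10). STAT3, the factor best known downstream of LEPR, was lower in fat than liver by 1.85 ± 0.221 (adjusted p = 2.48e-09). Over the 4 tissues (M2) 1 of the 7 was called for sex (background 1.69%), STAT5A, female-biased at -0.50 ± 0.137 (adjusted p = 0.0311). This call was lost with the quasi-likelihood test (adjusted p = 0.0612), with limma voom (adjusted p = 0.0703 without an animal block and 0.257 with it) and in 7 of the 11 fits that left out libraries. Those 7 left out bull 1, 2, 3 or 4, cow 1 or 2, or the liver of bull 3 with the fat of bull 5 (adjusted p = 0.0555 to 0.122).

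Of the adiponectin signalling list 11 of 12 genes were measured, and 8 were lower and 2 higher in fat than in liver (median -1.43, all genes 0.13). Against muscle 9 were lower and 1 was higher (median -2.75, all genes 0.13), and against pituitary 6 were lower and 3 higher (median -0.36, all genes -0.02). CDH13, the T-cadherin that binds adiponectin, was the exception by size, with 542 to 1667 CPM in fat and 1.29 to 11.5 CPM in liver, a difference of 7.84 ± 0.280 (adjusted p = 1.98e-22). ACADM, a dehydrogenase of fatty acid oxidation, was lower in fat than liver by 3.62 ± 0.194 (adjusted p = 7.95e-19). For sex 0 of the 11 genes passed in M1 in any tissue (background 0.114% to 0.745%) or in M2 (background 1.69%).

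The 3 listed chemerin receptors, CMKLR1 among them, were all measured. Of these, 1 was higher and 2 lower in fat than in liver (median -1.18, all genes 0.13) and likewise in fat than in muscle (median -0.88, all genes 0.13), and all 3 were higher in fat than in pituitary (median 2.84, all genes -0.02). GPR1 was lower in fat than liver by 2.59 ± 0.311 (adjusted p = 4.74e-09). Of the genes of NAD metabolism beside NAMPT 8 of 13 were measured, with 3 lower and 0 higher in fat than in liver (median -0.30, all genes 0.13), where 28.9% of all genes were lower and 35.4% higher. Against muscle 4 were higher and 2 lower (median 0.20, all genes 0.13), and so they were against pituitary (median 0.39, all genes -0.02). CD38, an enzyme that consumes NAD, was lower in fat than liver by 3.45 ± 0.365 (adjusted p = 1.25e-10). NMNAT1, which acts after NAMPT in the salvage pathway, was lower by 1.02 ± 0.170 (adjusted p = 1.75e-06), or by 0.29 with library sizes alone (adjusted p = 0.142). In M2 1 of the 8 was called for sex (background 1.69%), NADSYN1, the NAD synthetase, female-biased at -0.63 ± 0.163 (adjusted p = 0.0209). The call was lost with the quasi-likelihood test (adjusted p = 0.0530), with limma voom (adjusted p = 0.111 without an animal block and 0.347 with it), and when bull 1, 2 or 4 or cow 1 or 2 was left out (adjusted p = 0.0769 to 0.135).

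Of 30 other secreted factors of fat 24 were measured. Higher in fat than liver were 15, with 6 lower (median 1.48, all genes 0.13), higher than in muscle 19, with 4 lower (median 2.05, all genes 0.13), and higher than in pituitary 19, with 0 lower (median 2.91, all genes -0.02). SFRP5, a secreted Wnt inhibitor, exceeded liver in fat by 9.41 ± 0.581 (adjusted p = 4.97e-16), and C1QTNF7, a relative of adiponectin, by 3.29 ± 0.304 (adjusted p = 6.29e-12). Both were also called for sex outside fat, SFRP5 as 1 of the 24 in pituitary (background 0.745%) and C1QTNF7 as 1 of the 24 in muscle (background 0.517%). In liver, in fat and in M2 0 of the 24 passed (background 0.175%, 0.114% and 1.69%). In pituitary SFRP5 was 0.252, 0.236, 0.580, 0.468 and 0.684 CPM in the cows and 2.34, 1.31, 1.15, 3.17 and 6.13 CPM in the bulls, which did not overlap (background 1.34%). These were low counts, 4 to 10 reads per library in the cows (32 in all) and 15 to 94 in the bulls. The sex difference was 2.66 ± 0.542 (adjusted p = 0.000972), it kept its call when each library was left out, and the quasi-likelihood test gave an adjusted p of 0.104. In muscle C1QTNF7 was 11.035, 7.44, 9.27, 1.92 and 6.44 CPM in the cows and 1.56, 3.04, 1.59, 1.82 and 2.90 CPM in the bulls. Cow 4 lay among the bulls. The difference was -1.71 ± 0.464 with an adjusted p of 0.0498, the call was kept without cow 4 and without cow 5 and lost without each other library (adjusted p = 0.0936 to 0.208), and the quasi-likelihood test gave 0.296. RLE factors (adjusted p = 0.0518) and library sizes alone (adjusted p = 0.0521) also lost it. In the same muscle libraries 3 cell type markers were called for sex, the myosin gene MYH1 (-5.20 ± 0.402), the myosin light chain gene MYL2 (1.86 ± 0.396) and the monocyte gene CD14 (-1.40 ± 0.343), with adjusted p = 8.27e-24, 0.00345 and 0.0233. Their part in the difference of C1QTNF7 was not tested.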

How the data were processed

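Total RNA of 40 tissue samples was sequenced, 1 library per animal and tissue. The authors trimmed the reads with Trimmomatic, aligned them to bosTau7 with Bowtie2 in TopHat2, and deposited HTSeq read counts per gene symbol and library, not normalized, filtered or pooled. The mode and strand setting of the counting are not given in the sources used here, so reads of a gene and of an antisense partner cannot be told apart. The 1 row without a gene name, 0.114% to 2.69% of the reads, was left out. Uniquely aligned reads outside genes were 33.2% to 54.0%.

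A gene was kept when any library held 1 read of it or more (13148 genes). Levels are TMM CPM. Sex was tested with edgeR 4.0.16 likelihood ratio tests, within a tissue (M1), with tissue as a term (M2) and as the interaction, and pairs of tissues with its quasi-likelihood test on the 40 libraries with sex as a term. The tests used R 4.3.3, a prior count of 0.125 and Benjamini-Hochberg adjustment over all genes, with a threshold of 0.05. Correlations between 10 animals used 100000 permutations, two-sided, in SciPy 1.17.1. DESeq2 1.42.0, RLE factors, library sizes alone, filterByExpr and leaving out libraries or animals were alternatives, and limma 3.58.1 voom gave the random animal block of M2. The scripts were tested on simulated counts. The same animal gave all 4 tissues, so its libraries are paired. The median correlation of their deviations between tissues was 0.0243 to 0.326. Cow 1 and bull 1 share a number only.

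The 9 genes and all lists were chosen with earlier results of these data known. Text names the 9 genes, the 3 genes most like each (Pearson's r of log2(CPM + 1), among genes with 1 CPM in at least 5 libraries), the 2 genes of each list with the smallest adjusted p between fat and liver, and every list gene called for sex. CGA and the other hormone genes, PLIN1, CDH5 and the read ratios were added after their values were seen. Intervals and the limit of 3 reads for a count of 0 cover counting error only. Sequences and transcript lengths were not used here.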

Additional observations from a re-analysis of the deposited data

Results flagged for a closer look

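In groups of 5 libraries of 1 sex and tissue, 12 of 59 tested groups' extremes stood apart from the other 4 libraries by Dixon's 95% criterion (0.710). A rate of 1 in 20 would give 2.95, but only for independent, normally distributed values. These were CPM without a log, some of a few reads, and the same libraries recur across genes. The 12 are therefore listed as a description and not as an excess over chance. For LEP the highest values were 2.33 CPM in the liver of bull 2 (13 reads), 2216 CPM in the fat of bull 5, 55.5 CPM in the muscle of cow 5 and 0.273 CPM in the pituitary of cow 5 (4 reads). For the leptin receptor LEPR it was 1.13 CPM in the fat of cow 1 (22 reads). The lowest ADIPOR1 value of the bulls' pituitaries was 43.9 CPM in bull 2, where the other 4 lay between 49.4 and 51.4 CPM. RETN stood out at 1.23 CPM in the fat of cow 2 (19 reads). RARRES2 stood out in the same library at 513 CPM, in the fat of bull 5 at 774 CPM and in the muscle of cow 2 at 51.1 CPM. CMKLR1 was lowest in the fat of bull 5 at 0.541 CPM (7 reads) and highest in the muscle of bull 4 at 14.6 CPM. Of the 12 values, 5 came from the fat of bull 5 and cow 2, the libraries with the least CDH5 (15.8 and 46.3 CPM). Among the other listed endothelial markers, KDR was lowest in the same libraries (38.2 and 37.6 CPM). PECAM1 was lowest in cow 4 (265 CPM), and VWF was highest in bull 5 (1381 CPM), with 1169 CPM in cow 2. The causes were not tested.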

How the results depend on the processing

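Over the tissue and sex differences of single genes, 1582 values were recomputed under alternatives, of which 1479 kept their direction and side of the threshold, 61 lost their call, 12 gained one and 30 changed sign. For the tissue differences of the 8 genes these were 733, 17, 12 and 0 of 762. The count of the 8 genes called for sex in pituitary was 1, but 0 with the quasi-likelihood test and 0 with DESeq2, and 0 to 1 when each library was left out. The count for the interaction was 0, and 0 to 1 when each animal was left out. Centring each sex moved the pairs in fat that passed by r from 0 to 1. The 30 changes of sign were all in sex differences that passed in no fit. With library sizes alone these were ADIPOR1 in muscle (-0.0060) and RARRES2 in liver (-0.12), and without the 2 libraries in doubt CMKLR1 in M2 (0.036). When each library or animal was left out, the difference for LEP was -0.21 to 2.06 in liver and -0.62 to 1.23 in muscle. It was -0.11 to 0.11 for ADIPOR1 in liver, -0.017 to 0.43 for ADIPOR2 in liver, -0.19 to 0.24 for ADIPOR2 in fat and -0.0087 to 0.53 for ADIPOR2 in muscle. It was -0.80 to 1.69 for RETN in fat, -0.098 to 1.24 for RETN in M2 and -0.24 to 0.064 for NAMPT in fat. For RARRES2 it was -0.038 to 0.15 in liver, -0.25 to 1.30 in fat and -0.36 to 0.046 in muscle, and for CMKLR1 -0.42 to 0.10 in muscle and -0.19 to 0.072 in M2. With the animal as a replicate block, the pairing added RARRES2 between fat and pituitary (-1.003, adjusted p = 0.0306) to the tissue calls and changed no other tissue call of the 8. In M2 limma voom called 8 of all genes with the animal as a replicate block and 43 without it, an unblocked fit chosen after seeing the data, against 222 with the likelihood ratio test (77 with the quasi-likelihood test, 717 with library sizes alone), and none of the 8 genes in any of these. The fixed block called 56 of all genes for the interaction against 44, again with none of the 8. In pituitary the quasi-likelihood test called 12 genes against 98. Depth limits RETN in all tissues, LEPR in fat, and LEP in liver and pituitary, where counts of a few reads per library decide the values. It also limits SFRP5 in the pituitary of the cows, at 4 to 10 reads per library. The causes of these shifts were not tested.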
